A study of Mus musculus with 12 samples.

Results

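Interferon-stimulated genes, the genes that cells switch on when an interferon binds its receptor, were examined in back skin of mice with imiquimod-induced psoriasis-like lesions. The set was a list of 38 gene symbols written by hand. Of these, 36 had a row among the 18505 genes of the deposited table, and 34 reached the mean level of 0.1 FPKM (fragments per kilobase, a level corrected for transcript length and sequencing depth) needed for a test, as did 15288 genes in all. Mx1 and Mx2 had no row and were not analysed here. Oas1a and Oas1g had a row but did not exceed 0.026 and 0.0126 FPKM in any sample.

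Total RNA of back skin was sequenced from 12 wild-type male BALB/c mice aged 5 to 6 weeks, 4 per group, taken on day 10. Petroleum jelly was applied to the control group. The IMQ + NS group received imiquimod (IMQ) cream once daily, followed by a saline (NS) cover under gauze and film. The IMQ + BZLF group received the same cream followed by Banzhilian formula (BZLF), a herbal preparation, under the same cover. All 12 mice had their back hair shaved, and both lesion groups shared the cream and the cover. No cover is described for the control group, so cream and cover cannot be told apart in a comparison with control skin. The BZLF dose given to the sequenced mice was not stated. Each lesion group was compared with the same 4 control samples, so the values of those comparisons are placed side by side and are not independent of each other.

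Interferons signal through JAK kinases and STAT proteins. Type I interferons (alpha and beta) lead to a complex named ISGF3, with STAT2 and IRF9 among its subunits, that binds interferon-stimulated response elements (ISRE), whereas interferon gamma acts mainly through gamma-activated sites (GAS). Genes of the Ifit, Oas and Mx families, which restrict viral RNA, are commonly read as a type I response, and genes of the Gbp family and the chemokine Cxcl9 as an interferon gamma response, although many respond to both. Imiquimod is an agonist of the RNA sensor TLR7, which plasmacytoid dendritic cells carry and through which they make type I interferon.

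The promoters of both classes were searched for these elements. Of the listed genes, 28 had a window in the RefSeq table of GRCm38.p6 (mm10), spanning 250 bases before to 50 after a start. The letters GAAA, any 2 bases and again GAAA, an ISRE core searched on both strands, were in the windows of 17 of 28 genes (60.7%), against 3.99% of 27025 genes in the table. The letters TTCNNNGAA, a GAS core that reads the same on both strands, were in 7 of 28 (25%), against 9.55% of all genes. ISRE letters were in 5 of 8 type I type genes and in 3 of 4 interferon gamma type genes, while GAS letters were in 2 of 8 and 1 of 4. The stretches below lie upstream of the start and are shown because their genes carry the results that follow: an Ifit gene and a viral tether that fell, the modifier gene Isg15 that was not called, and 2 Gbp genes. Capitals mark the ISRE or GAS letters, including the ISRE core read on the opposite strand, TTTC, any 2 bases and again TTTC.
Ifit1, chr19:34640734-34640843, plus strand: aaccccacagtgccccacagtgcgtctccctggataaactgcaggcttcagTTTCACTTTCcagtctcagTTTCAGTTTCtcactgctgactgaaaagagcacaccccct
Bst2, chr8:71537557-71537666, minus strand: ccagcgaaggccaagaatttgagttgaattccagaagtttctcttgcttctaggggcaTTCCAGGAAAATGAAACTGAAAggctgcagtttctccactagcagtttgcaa
Isg15, chr4:156200845-156200954, minus strand: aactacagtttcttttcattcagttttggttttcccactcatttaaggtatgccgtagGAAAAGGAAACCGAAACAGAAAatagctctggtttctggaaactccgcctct
Gbp2, chr3:142620534-142620643, plus strand: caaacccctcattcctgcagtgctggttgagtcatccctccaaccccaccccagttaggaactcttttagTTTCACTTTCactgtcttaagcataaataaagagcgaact
Gbp7, chr3:142530213-142530322, plus strand: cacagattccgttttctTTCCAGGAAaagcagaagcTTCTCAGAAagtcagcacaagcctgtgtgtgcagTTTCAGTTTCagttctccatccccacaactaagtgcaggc
Ifit1 held 2 ISRE matches, Bst2 held 2 that overlap each other and a GAS match that overlaps 1 of them, and Isg15 held 3 that overlap. Gbp2 held 1 ISRE match, while Gbp7 held 1 ISRE and 2 GAS matches. In the IMQ + NS group against control, the median log2 fold change was -0.86 over the 15 tested genes with ISRE letters and -1.13 over the 11 with a window and none. A match of letters is a description of the sequence and shows no binding.

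The FPKM values of a sample summed to between 444660 and 506622, and between 16649 and 16941 genes were above 0. The table holds no counts and the number of reads per sample is unknown, so the precision of a value rests on its 4 replicates. Markers of basal and suprabasal keratinocytes summed to 1840 to 7580 FPKM over the 12 samples, and none was at 0 in all samples of a group. Control replicate 2 stood apart, at -63.2 on the first principal component of all genes (76.4% of the variance) against -122 to -116 for the other control samples and 43.4 to 62.3 for the lesions. It had 149 FPKM of the hair shaft gene Krt35 against 0.624 to 4.72 in the other control samples. The proliferation gene Mki67 stood at 23.7 against 2.1 to 3.55, and the muscle gene Acta1 at 1420 against 3300 to 3540. In all 3 genes it lay toward the lesion samples. Transcripts of the seminal vesicle, an organ outside the sample, summed to 36.6 FPKM in control replicate 2 and 36.3 in IMQ + BZLF replicate 2. The counts of DEGs against control are therefore also given without these samples. The class medians against control are also given without control replicate 2.

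Most interferon-stimulated genes were lower in IMQ + NS lesions than in control skin. A gene was called differentially expressed (DEG) in limma when its Benjamini-Hochberg adjusted p was under 0.05 and it changed by more than 2-fold, where fold changes are on the scale of log2(FPKM + 0.1), which understates those of low genes. Of the 34 genes, 17 were DEGs that fell and 0 were DEGs that rose, where 11% of all genes were called lower and 11.4% higher. By adjusted p alone, with no limit on the fold, 27 fell and 0 rose, against 27.1% and 29% of all genes. The median log2 fold change was -1.09, with a range of -3.47 to 0.70, against 0.05 over all 15288 genes. The values of the lesion group lay wholly below the control values for 23 of 34 genes, against 25.7% of all genes. Without control replicate 2, 20 genes were DEGs and 28 fell by adjusted p alone. The fewest DEGs with 1 sample left out were 13, without IMQ + NS replicate 2, and a constant of 1 in place of 0.1 gave 10.

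**Figure D1:**
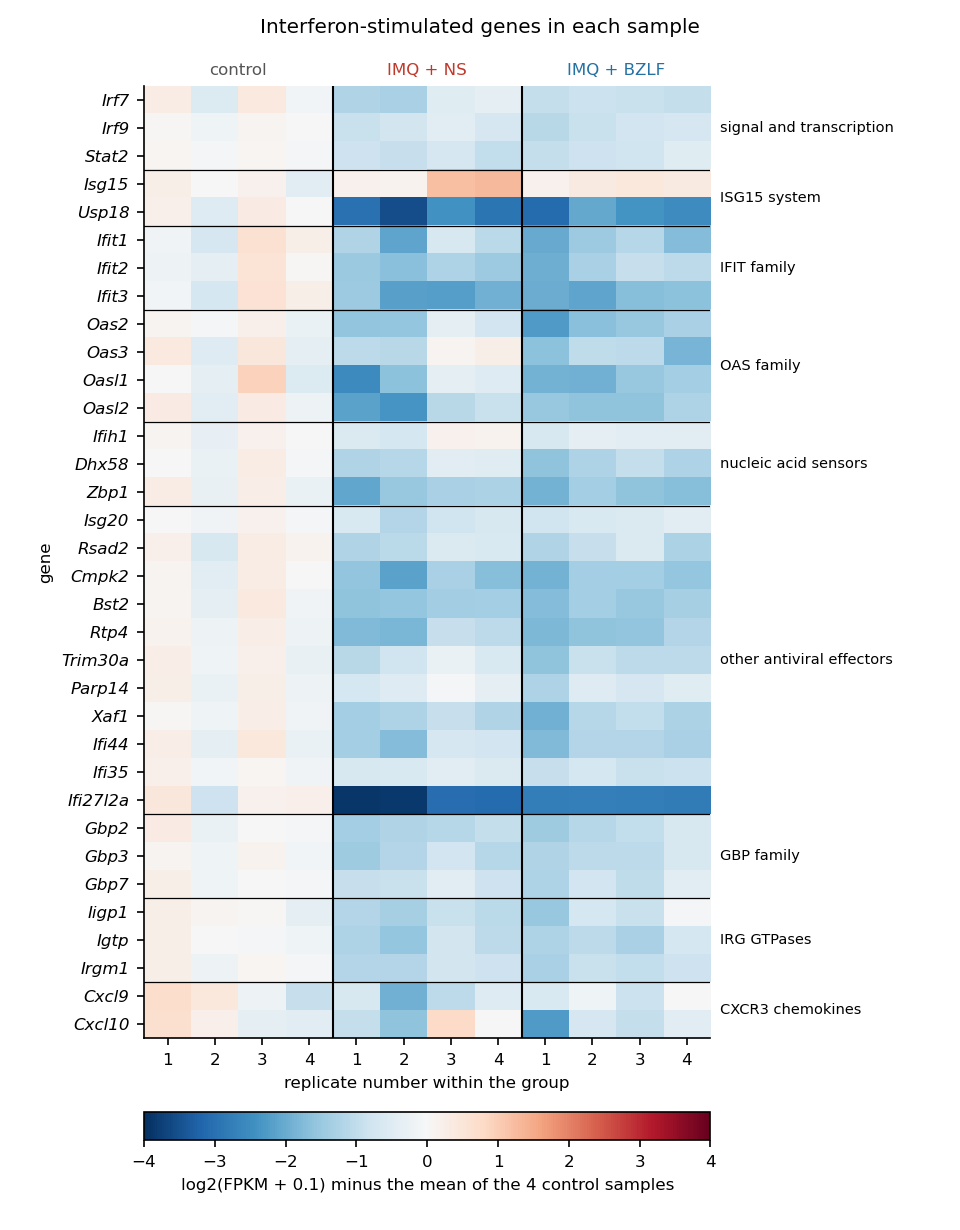
Heat map of log2(FPKM + 0.1) of 34 interferon-stimulated genes (rows, by role) in 12 samples (columns, replicates 1 to 4 of each group), each minus the mean of the 4 control samples. Blue is lower and red higher than control. Ifi27l2a and Usp18 are the darkest rows in both lesion groups, and Isg15 is the only row with red in every lesion sample.

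In the IMQ + BZLF group against control, 20 of 34 genes were DEGs that fell and 0 rose, where 10.1% of all genes were called lower and 9.65% higher. By adjusted p alone 31 fell and 0 rose, against 29.2% and 23.8% of all genes. The median log2 fold change was -1.11, with a range of -2.76 to 0.33, against -0.02 over all genes. The samples lay wholly below the control samples for 30 of 34 genes, against 28.1% of all genes. Leaving out control replicate 2 gave 23 DEGs, and leaving out IMQ + BZLF replicate 2 gave 21. The fewest with 1 sample left out were 17, without replicate 1 of either group, and a constant of 1 gave 12. The DEGs of both lesion groups had 15 genes in common, which is 15 of 17 in IMQ + NS and 15 of 20 in IMQ + BZLF samples, and both lists were drawn against the same controls.

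Between the lesion groups no gene of the set was a DEG. In the IMQ + BZLF group against the IMQ + NS group, 0 of 34 genes were DEGs in limma in either direction, where 2.2% of all genes were called lower and 0.321% higher. By adjusted p alone 1 gene, Ifi35, was lower and 0 were higher, against 5.17% and 1.28% of all genes. At an unadjusted p below 0.05, 3 genes were lower (Oas3, Trim30a and Ifi35) and 1 was higher (Ifi27l2a), all within 2-fold. The median log2 fold change was -0.09, with a range of -0.94 to 0.70, against -0.02 over all genes. Of the genes, 13 were above 0 and 21 below. The samples of the lesion groups did not overlap for 1 gene that was higher and 1 that was lower in IMQ + BZLF. Of all 15288 genes, 648 and 1672 separated in this way. The 95% confidence interval of the difference lay within 1 log2 unit either way for 26 of 34 genes. The half-width of the interval ran from 0.15 to 1.25, and for the other 8 it reached a 2-fold difference.

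**Figure D2:**
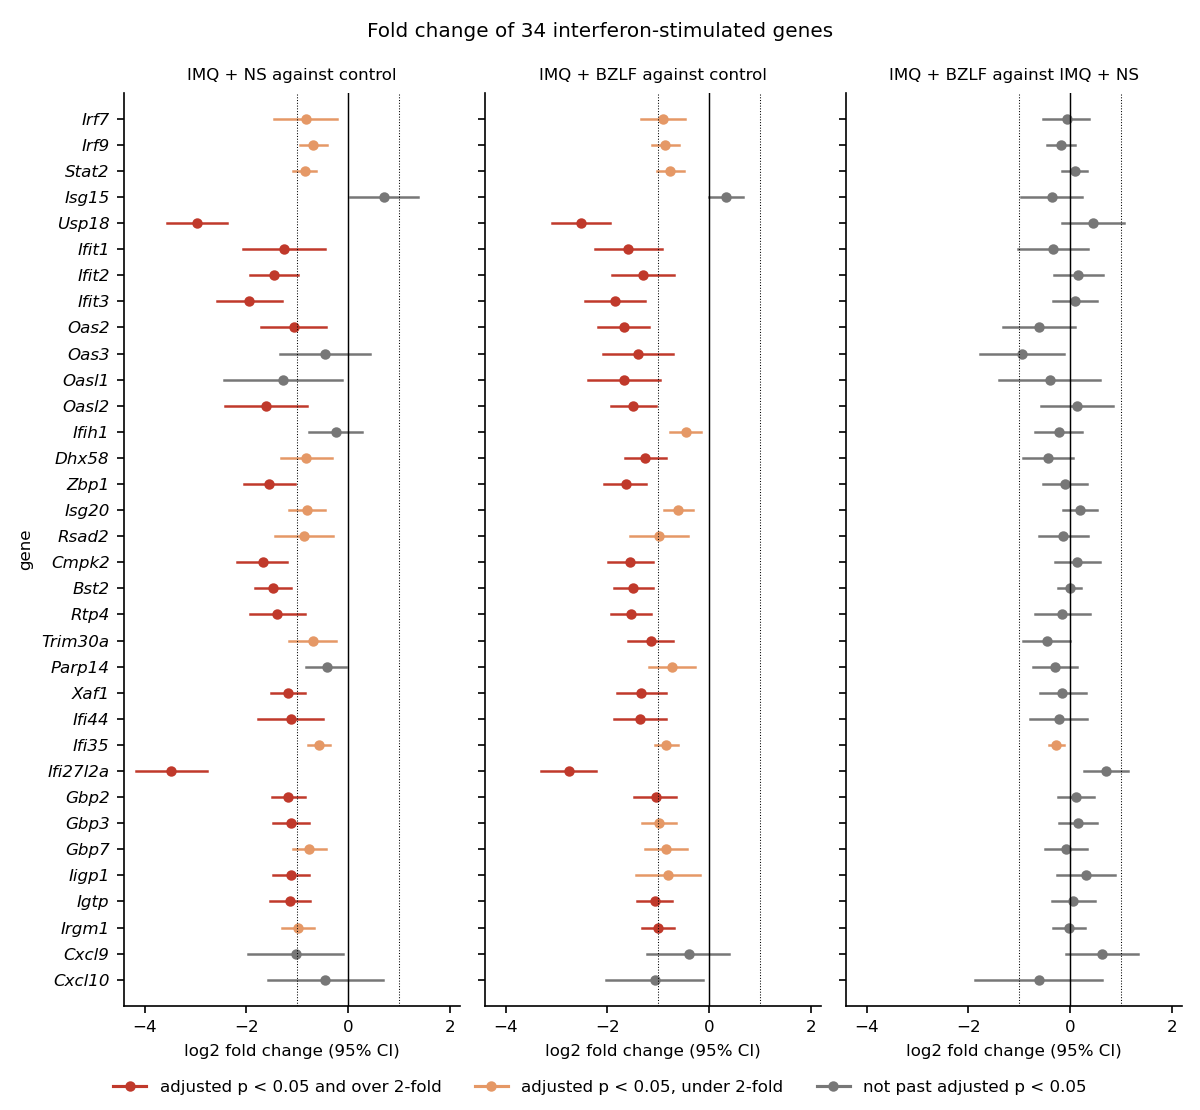
Log2 fold change (points) with its 95% confidence interval (lines) of 34 interferon-stimulated genes in 3 limma comparisons, where dotted lines mark a 2-fold change either way. Red marks DEGs and orange an adjusted p below 0.05 with less than a 2-fold change. The points of both comparisons with control lie left of 0 except for Isg15, and those between the lesion groups lie on both sides of 0.

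Of the transcription factors of the response, Irf9, the DNA-binding subunit of ISGF3, stood at 15.3, 13.1, 16.1 and 14.9 FPKM in the control group, 7.91, 8.93, 10.9 and 9.28 in the IMQ + NS group and 6.74, 7.93, 8.64 and 9.35 in the IMQ + BZLF group. Stat2, its partner, stood at 9.67, 8.56, 9.6 and 8.49 FPKM in the control group, 5.04, 4.77, 5.65 and 4.51 in the IMQ + NS group and 4.64, 5.11, 5.19 and 6.41 in the IMQ + BZLF group. For both genes every lesion sample lay below every control sample, and the lesion groups overlapped. In the IMQ + NS group the log2 fold change against control was -0.68 (SE 0.11, adjusted p = 0.00114) for Irf9 and -0.85 (SE 0.10, adjusted p = 0.00019) for Stat2, and in the IMQ + BZLF group it was -0.86 (adjusted p = 0.000593) and -0.76 (adjusted p = 0.000938). Irf7, which amplifies type I interferon production, had 28.4, 15.8, 30.5 and 21.4 FPKM in the control group, 10, 9.48, 16.6 and 18.1 in the IMQ + NS group and 12, 12.9, 12.5 and 12 in the IMQ + BZLF group. IMQ + NS replicates 3 and 4 reached into the control range, whereas the 4 IMQ + BZLF samples lay close together below it. Irf7 fell by adjusted p alone in both groups, with -0.83 (SE 0.28, adjusted p = 0.0296) in IMQ + NS and -0.91 (SE 0.19, adjusted p = 0.00436) in IMQ + BZLF samples. None of these 3 genes was a DEG, although without control replicate 2 Irf7 was one in both lesion groups, at -1.02 (IMQ + NS) and -1.09 (IMQ + BZLF).

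The ISG15 system contained the sharpest contrast in the set. Isg15 encodes a ubiquitin-like modifier that is joined to proteins after interferon, and its gene lies at chr4:156199424-156200818 (GRCm38.p6). It was measured at 16.9, 14.6, 16.3 and 10.7 FPKM in the control group, 16.1, 16, 33.2 and 35.4 in the IMQ + NS group and 16.3, 18.6, 19.5 and 18.6 in the IMQ + BZLF group. IMQ + NS replicates 3 and 4 were high, while replicates 1 and 2 of that group lay within the control range. Isg15 was the only gene of the 34 with a log2 fold change above 0 against control, at 0.70 (SE 0.30, adjusted p = 0.0716) in IMQ + NS and 0.33 (SE 0.15, adjusted p = 0.0819) in IMQ + BZLF samples, and neither passed the adjusted test. Usp18 (chr6:121245906-121270917) encodes the protease that removes ISG15 and also dampens signalling at the type I receptor. It was measured at 14.1, 8.43, 15.2 and 12.3 FPKM in the control group, 1.47, 0.945, 2.18 and 1.53 in the IMQ + NS group and 1.35, 2.9, 2.25 and 2.03 in the IMQ + BZLF group. All 8 lesion samples lay below the lowest control sample. Its log2 fold change was -2.97 (SE 0.26, adjusted p = 4.06e-05) in IMQ + NS and -2.51 (SE 0.25, adjusted p = 0.000136) in IMQ + BZLF samples, or 7.82-fold and 5.70-fold lower.

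Ifi27l2a (chr12:103433873-103443680), a member of the Ifi27 family of small interferon-induced proteins, was the most highly expressed member in control skin per transcript length and had the largest fall. It was measured at 679, 279, 552 and 570 FPKM in the control group, 33.5, 33.8, 59.7 and 58.2 in the IMQ + NS group and 72.9, 74.6, 72.4 and 70.5 in the IMQ + BZLF group. Control replicate 2 was the lowest of its group and still lay above all lesion samples, and every IMQ + BZLF sample lay above every IMQ + NS sample. The log2 fold change was -3.47 (SE 0.31, adjusted p = 4.47e-05) in IMQ + NS against control, or 11.07-fold lower, and -2.76 (SE 0.24, adjusted p = 6.47e-05) in IMQ + BZLF against control. Between the lesion groups it was 0.70 (SE 0.19, adjusted p = 0.0664), higher in IMQ + BZLF, with a two-sided exact permutation p of 0.0286 over 4 against 4 samples, the smallest that design allows. The limma test adjusted over all genes was not passed.

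**Figure D3:**
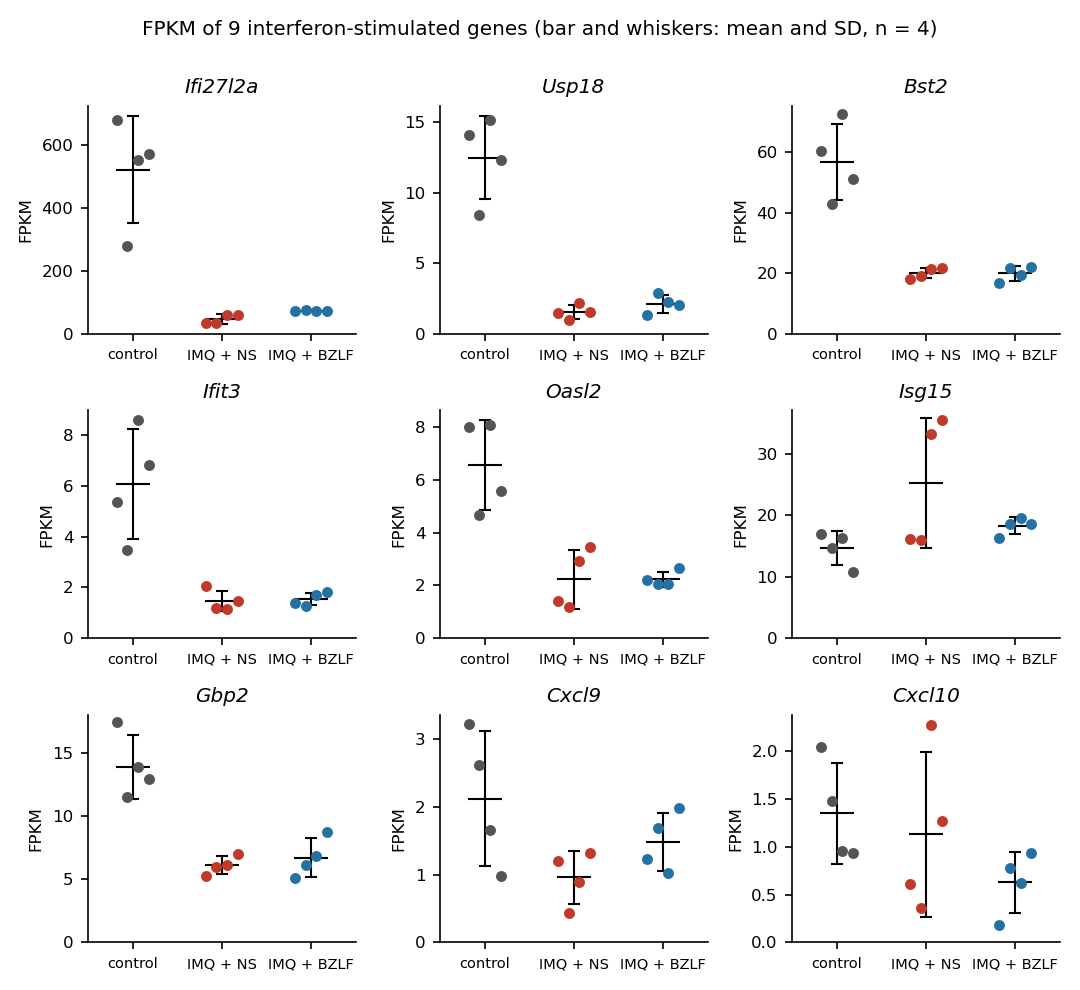
FPKM per sample (points) of 9 interferon-stimulated genes in the 3 groups, with the group mean and SD (bar and whiskers, n = 4), on linear axes that start at 0. In Ifi27l2a, Usp18, Bst2, Ifit3, Oasl2 and Gbp2 every lesion sample lies below every control sample, whereas in Isg15 and Cxcl9 both lesion groups overlap the control group and in Cxcl10 the IMQ + NS group does.

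The 3 Ifit genes encode proteins that bind foreign RNA and block its translation. Ifit1 (chr19:34640889-34650009) had 2.82, 1.89, 4.73 and 3.63 FPKM in the control group, 1.28, 0.644, 1.95 and 1.43 in the IMQ + NS group and 0.683, 1.07, 1.34 and 0.87 in the IMQ + BZLF group. Ifit2 had 4.55, 4.03, 7.8 and 5.52 FPKM in the control group, 1.85, 1.59, 2.2 and 1.88 in the IMQ + NS group and 1.31, 2.12, 2.78 and 2.54 in the IMQ + BZLF group. Ifit3 had 5.36, 3.49, 8.61 and 6.82 FPKM in the control group, 2.04, 1.2, 1.16 and 1.45 in the IMQ + NS group and 1.39, 1.26, 1.7 and 1.8 in the IMQ + BZLF group. For Ifit2 and Ifit3 no lesion sample reached the control range, whereas for Ifit1 the third IMQ + NS sample slightly exceeded the lowest control sample. In the IMQ + NS group the log2 fold changes were -1.25 (SE 0.35, adjusted p = 0.0155) for Ifit1, -1.46 (SE 0.20, adjusted p = 0.00046) for Ifit2 and -1.94 (SE 0.28, adjusted p = 0.000567) for Ifit3. In the IMQ + BZLF group they were -1.59 (SE 0.29, adjusted p = 0.00228), -1.29 (SE 0.27, adjusted p = 0.00415) and -1.85 (SE 0.26, adjusted p = 0.000632). All 3 were DEGs in both comparisons, although Ifit1 was within 2-fold in the IMQ + NS group without IMQ + NS replicate 2, at -0.97. Of the Ifit3 transcript, 51.2% of 50-base windows also occur in another gene, most often its near copy Ifit3b, so the reads of these genes could be split either way and the level of Ifit3 is uncertain. The same share was 7.13% for Ifit1 and 0 for Ifit2.

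The Oas and Oasl genes encode oligoadenylate synthetases, which sense double-stranded RNA, and their relatives. Oas2 had 2.2, 1.91, 2.32 and 1.67 FPKM in the control group, 0.61, 0.615, 1.52 and 1.15 in the IMQ + NS group and 0.341, 0.568, 0.64 and 0.754 in the IMQ + BZLF group. Oas3 had 0.891, 0.432, 0.941 and 0.487 FPKM in the control group, 0.268, 0.25, 0.713 and 0.786 in the IMQ + NS group and 0.141, 0.27, 0.263 and 0.109 in the IMQ + BZLF group. In both genes IMQ + NS replicates 3 and 4 were the highest of the lesion samples, and for Oas3 they lay inside the control range. Oasl1 had 2.82, 2.18, 5.43 and 1.91 FPKM in the control group, 0.406, 0.843, 2.14 and 1.94 in the IMQ + NS group and 0.683, 0.678, 0.929 and 1.05 in the IMQ + BZLF group. Oasl2 had 7.99, 4.68, 8.06 and 5.57 FPKM in the control group, 1.39, 1.16, 2.91 and 3.44 in the IMQ + NS group and 2.19, 2.04, 2.05 and 2.64 in the IMQ + BZLF group. IMQ + NS replicates 3 and 4 were again above replicates 1 and 2, and the 4 IMQ + BZLF samples of Oasl1 and Oasl2 lay below all control samples. In the IMQ + NS group Oas2 and Oasl2 were DEGs at -1.07 (SE 0.28, adjusted p = 0.0114) and -1.62 (SE 0.35, adjusted p = 0.00463), and Oas3 and Oasl1 did not pass, with log2 fold changes of -0.45 (SE 0.39, adjusted p = 0.344) and -1.27 (SE 0.51, adjusted p = 0.0599). In the IMQ + BZLF group all 4 were DEGs, at -1.68 (SE 0.22, adjusted p = 0.000468) for Oas2, -1.39 (SE 0.30, adjusted p = 0.00515) for Oas3, -1.67 (SE 0.31, adjusted p = 0.00241) for Oasl1 and -1.49 (SE 0.19, adjusted p = 0.000442) for Oasl2. Without IMQ + NS replicate 1 or replicate 2 Oas2 was within 2-fold in the IMQ + NS group, at -0.90 each time, and without replicate 3 or 4 Oasl1 was a DEG there, at -1.57 and -1.52. The largest value of the set between the lesion groups was that of Oas3, -0.94 (SE 0.36, adjusted p = 0.165), lower in IMQ + BZLF, and the groups overlapped.

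The 3 cytosolic sensors of nucleic acids differed in how far they moved. Zbp1, which binds nucleic acid in the Z form, had 7.92, 5.29, 7.85 and 5.41 FPKM in the control group, 1.46, 2.2, 2.56 and 2.62 in the IMQ + NS group and 1.68, 2.48, 2.04 and 1.92 in the IMQ + BZLF group. Dhx58, which encodes the RNA sensor LGP2, had 3.34, 2.81, 4.19 and 3.24 FPKM in the control group, 1.4, 1.46, 2.45 and 2.39 in the IMQ + NS group and 1.04, 1.38, 1.7 and 1.36 in the IMQ + BZLF group. Ifih1, which encodes the RNA sensor MDA5, had 5.43, 4.03, 5.74 and 5.13 FPKM in the control group, 3.37, 3.03, 5.69 and 5.61 in the IMQ + NS group and 3.2, 3.94, 3.71 and 3.69 in the IMQ + BZLF group. All lesion samples of Zbp1 and Dhx58 lay below all control samples, and IMQ + NS replicates 3 and 4 of Ifih1 lay inside the control range. Zbp1 was a DEG in both groups, at -1.55 (SE 0.22, adjusted p = 0.000486) in IMQ + NS and -1.64 (SE 0.18, adjusted p = 0.000223) in IMQ + BZLF samples. Dhx58 fell by adjusted p alone in IMQ + NS samples, at -0.82 (SE 0.22, adjusted p = 0.0119), and was a DEG at -1.25 (SE 0.18, adjusted p = 0.000645) in IMQ + BZLF samples. Ifih1 had -0.24 (SE 0.23, adjusted p = 0.394) in IMQ + NS samples, which did not pass, and -0.46 (SE 0.13, adjusted p = 0.0178) in IMQ + BZLF samples, which passed by adjusted p alone.

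Among 11 other antiviral effectors, Ifi27l2a included, 6 were DEGs that fell in IMQ + NS and 7 in IMQ + BZLF against control, and by adjusted p alone 10 and 11 fell. Of all genes 11% and 10.1% were DEGs that fell, and 27.1% and 29.2% fell by adjusted p alone. Bst2 (chr8:71534255-71537472), the tether that holds budding virus at the cell surface, had 60.4, 43, 72.5 and 51 FPKM in the control group, 18.1, 18.9, 21.3 and 21.6 in the IMQ + NS group and 16.7, 21.6, 19.5 and 21.9 in the IMQ + BZLF group. Cmpk2, a mitochondrial nucleotide kinase, had 4.14, 2.78, 4.76 and 3.86 FPKM in the control group, 1.21, 0.795, 1.5 and 1.09 in the IMQ + NS group and 0.961, 1.41, 1.41 and 1.23 in the IMQ + BZLF group. Rtp4, a chaperone of receptors with antiviral activity, had 8.44, 6.61, 9.13 and 6.59 FPKM in the control group, 2.15, 2.06, 4.01 and 3.67 in the IMQ + NS group and 2.13, 2.45, 2.47 and 3.35 in the IMQ + BZLF group. No lesion sample of Bst2, Cmpk2 or Rtp4 reached the control range, and the lesion groups overlapped in each. In IMQ + NS samples Bst2 had -1.48 (SE 0.15, adjusted p = 9.88e-05), Cmpk2 -1.68 (SE 0.22, adjusted p = 0.000307) and Rtp4 -1.39 (SE 0.24, adjusted p = 0.00132). In IMQ + BZLF samples Bst2 had -1.49 (SE 0.16, adjusted p = 0.000216), Cmpk2 -1.55 (SE 0.19, adjusted p = 0.000366) and Rtp4 -1.53 (SE 0.17, adjusted p = 0.00022). The difference of Bst2 between the lesion groups was -0.01, with a 95% interval of -0.23 to 0.21. For Rtp4, 13.6% of transcript windows occur in another annotated gene, and its level is uncertain to that extent.

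Xaf1, a gene linked to cell death, had 4.23, 3.62, 4.93 and 3.69 FPKM in the control group, 1.52, 1.68, 2.13 and 1.73 in the IMQ + NS group and 1.01, 1.8, 2.02 and 1.64 in the IMQ + BZLF group. Ifi44, an interferon-induced gene of the antiviral response, had 5.17, 3.23, 5.77 and 3.52 FPKM in the control group, 1.6, 1.23, 2.64 and 2.5 in the IMQ + NS group and 1.19, 1.83, 1.87 and 1.7 in the IMQ + BZLF group. Both were DEGs without overlap with control in either lesion group, at -1.18 (SE 0.15, adjusted p = 0.000245) and -1.13 (SE 0.28, adjusted p = 0.0084) in IMQ + NS and -1.33 (SE 0.21, adjusted p = 0.00113) and -1.35 (SE 0.22, adjusted p = 0.00135) in IMQ + BZLF samples. In IMQ + NS samples the call of Ifi44 was lost without control replicate 3, at -0.99, or without IMQ + NS replicate 2, at -0.94. Trim30a, a TRIM family regulator, had 7.78, 5.71, 7.55 and 5.28 FPKM in the control group, 2.96, 3.72, 5.39 and 4.23 in the IMQ + NS group and 2.04, 3.44, 3.12 and 3.06 in the IMQ + BZLF group. Its IMQ + NS group overlapped the control group and its IMQ + BZLF group did not. It fell by adjusted p alone in IMQ + NS samples, at -0.69 (SE 0.20, adjusted p = 0.0178), and was a DEG in IMQ + BZLF samples, at -1.15 (SE 0.19, adjusted p = 0.00149). Without IMQ + BZLF replicate 1 that value was -1.0, at the limit, and the call was lost. Of its transcript windows, 6.53% occur in another gene, most often Trim30d.

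Rsad2, which encodes viperin, an enzyme that makes a chain-terminating nucleotide, had 1.5, 0.806, 1.61 and 1.45 FPKM in the control group, 0.513, 0.559, 0.841 and 0.823 in the IMQ + NS group and 0.504, 0.646, 0.844 and 0.477 in the IMQ + BZLF group. Isg20, which encodes an exonuclease of RNA, had 2.64, 2.39, 2.99 and 2.56 FPKM in the control group, 1.69, 1.12, 1.46 and 1.67 in the IMQ + NS group and 1.49, 1.7, 1.74 and 1.89 in the IMQ + BZLF group. Parp14, an ADP-ribosyltransferase, had 6.42, 4.59, 6.44 and 4.74 FPKM in the control group, 3.3, 3.82, 5.19 and 4.13 in the IMQ + NS group and 2.26, 3.83, 3.39 and 3.89 in the IMQ + BZLF group. The lesion samples of Isg20 lay below all control samples, while some of those of Rsad2 and of the IMQ + NS samples of Parp14 reached into the control range. None was a DEG in limma with all samples. The log2 fold changes in IMQ + NS samples were -0.86 (SE 0.25, adjusted p = 0.0167) for Rsad2, -0.80 (SE 0.15, adjusted p = 0.00221) for Isg20 and -0.42 (SE 0.17, adjusted p = 0.0646) for Parp14, of which that of Parp14 did not pass by adjusted p. In IMQ + BZLF samples they were -0.99 (adjusted p = 0.0101), -0.61 (adjusted p = 0.00375) and -0.73 (adjusted p = 0.0152), and all 3 passed by adjusted p alone. Without control replicate 2 Rsad2 was a DEG in both lesion groups, at -1.07 and -1.20, and in IMQ + BZLF samples also without IMQ + BZLF replicate 2 or 3, at -1.02 and -1.13.

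Ifi35, which encodes a leucine zipper protein of the interferon response, was the only gene of the 34 past the adjusted test between the lesion groups. It had 24.8, 20, 22.8 and 19.8 FPKM in the control group, 14, 14.3, 15.9 and 14.6 in the IMQ + NS group and 11.5, 13.3, 11.8 and 12 in the IMQ + BZLF group. The 3 groups did not overlap, with control highest and IMQ + BZLF lowest. Its log2 fold change in IMQ + BZLF against IMQ + NS was -0.27 (SE 0.07, adjusted p = 0.0457), or 1.21-fold lower, and the exact permutation p was 0.0286. The call was lost when any 1 of 7 of the 8 samples was left out, all but IMQ + BZLF replicate 2. It was also lost with no filter on low values, median ratio scaling, quantile normalization, all 12 samples in one fit, no trend and the replicate number as a block. Against control it was -0.57 (SE 0.09, adjusted p = 0.0011) in IMQ + NS and -0.84 (SE 0.10, adjusted p = 0.000277) in IMQ + BZLF samples.

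Among the genes read as an interferon gamma response, guanylate-binding proteins coat the vacuoles of intracellular pathogens. Gbp2 (chr3:142620663-142638008) had 17.4, 11.5, 13.9 and 12.9 FPKM in the control group, 5.27, 5.95, 6.14 and 6.99 in the IMQ + NS group and 5.1, 6.14, 6.87 and 8.7 in the IMQ + BZLF group. Gbp3 had 6.25, 5.07, 6.35 and 5.35 FPKM in the control group, 2.07, 2.48, 3.36 and 2.52 in the IMQ + NS group and 2.44, 2.73, 2.75 and 3.64 in the IMQ + BZLF group. Gbp7 had 6.56, 4.94, 5.6 and 5.43 FPKM in the control group, 2.92, 2.95, 4.14 and 3.13 in the IMQ + NS group and 2.34, 3.28, 2.72 and 4.19 in the IMQ + BZLF group. In all 3 every lesion sample lay below every control sample, and IMQ + BZLF replicate 4 was the highest lesion sample. In IMQ + NS samples Gbp2 and Gbp3 were DEGs at -1.17 (SE 0.14, adjusted p = 0.000216) and -1.13 (SE 0.16, adjusted p = 0.000433), and Gbp7 fell by adjusted p alone at -0.77 (SE 0.14, adjusted p = 0.00199). In IMQ + BZLF samples Gbp2 was a DEG at -1.05 (SE 0.18, adjusted p = 0.00164), while Gbp3 and Gbp7 fell by adjusted p alone at -0.98 (SE 0.14, adjusted p = 0.00081) and -0.85 (SE 0.18, adjusted p = 0.00456). The IMQ + BZLF values of Gbp2 and Gbp3 lay near the 2-fold limit. Gbp2 was not called there without control replicate 1, at -0.94, or IMQ + BZLF replicate 1, at -0.93, and Gbp3 was called without control replicate 2, control replicate 4 or IMQ + BZLF replicate 4, at -1.04, -1.01 and -1.09. Of the Gbp7 transcript, 12.8% of windows are shared with other annotated genes, and of Gbp3, 4.79%, most often with Gbp7.

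The immunity-related GTPases work at the same vacuoles. Iigp1 had 9.99, 9.23, 8.88 and 6.48 FPKM in the control group, 3.71, 3.33, 4.55 and 4.02 in the IMQ + NS group and 2.95, 5.16, 4.53 and 8 in the IMQ + BZLF group. Igtp had 11.3, 9.46, 9.18 and 8.51 FPKM in the control group, 4.04, 3.2, 5.72 and 4.6 in the IMQ + NS group and 4.02, 4.55, 3.86 and 5.78 in the IMQ + BZLF group. Irgm1 had 11.2, 8.25, 10 and 9.04 FPKM in the control group, 4.18, 4.21, 5.68 and 5.29 in the IMQ + NS group and 3.8, 5.1, 4.82 and 5.33 in the IMQ + BZLF group. The lesion samples lay below the control samples except for IMQ + BZLF replicate 4 of Iigp1, which was above the lowest control sample. In IMQ + NS samples Iigp1 and Igtp were DEGs, at -1.12 (SE 0.15, adjusted p = 0.000431) and -1.14 (SE 0.17, adjusted p = 0.000741), and Irgm1 fell by adjusted p alone, at -0.98 (SE 0.14, adjusted p = 0.00051). In IMQ + BZLF samples Iigp1 fell by adjusted p alone, at -0.80 (SE 0.28, adjusted p = 0.0363), and Igtp and Irgm1 were DEGs, at -1.07 (SE 0.15, adjusted p = 0.000596) and -1.0 (SE 0.14, adjusted p = 0.000596). These values too lay near the limit. In IMQ + NS samples Igtp was not called without IMQ + NS replicate 2, at -1.0, and Irgm1 was called without control replicate 2 or 4 or IMQ + NS replicate 3 or 4, at -1.06 to -1.01. In IMQ + BZLF samples Igtp was not called without control replicate 1 or IMQ + BZLF replicate 3, at -0.99 and -1.0, nor Irgm1 without control replicate 1, control replicate 3 or IMQ + BZLF replicate 1, at -0.98 to -0.90, while Iigp1 was called without IMQ + BZLF replicate 4, at -1.04. Of the Igtp transcript, 12.3% of windows occur in another gene, most often Irgm2.

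Cxcl9 and Cxcl10 encode ligands of CXCR3, which draw activated T cells. Cxcl9 (chr5:92321331-92328079) had 3.22, 2.61, 1.66 and 0.984 FPKM in the control group, 1.2, 0.441, 0.89 and 1.32 in the IMQ + NS group and 1.23, 1.69, 1.03 and 1.98 in the IMQ + BZLF group. Cxcl10 had 2.05, 1.48, 0.952 and 0.936 FPKM in the control group, 0.61, 0.356, 2.28 and 1.27 in the IMQ + NS group and 0.187, 0.78, 0.621 and 0.931 in the IMQ + BZLF group. The control samples of both genes were themselves spread widely, and IMQ + NS replicate 3 was the highest sample of all for Cxcl10. Cxcl9 did not pass in either comparison with control, at -1.03 (SE 0.41, adjusted p = 0.0584) in IMQ + NS and -0.40 (SE 0.35, adjusted p = 0.361) in IMQ + BZLF samples, nor did Cxcl10, at -0.45 (SE 0.50, adjusted p = 0.459) and -1.07 (SE 0.42, adjusted p = 0.0567). Without control replicate 4 Cxcl9 was a DEG in IMQ + NS samples, at -1.33, and without IMQ + BZLF replicate 4 Cxcl10 was one in IMQ + BZLF samples, at -1.29. The IMQ + BZLF samples of Cxcl10 lay just below the control samples, from 0.931 down to 0.187 FPKM against a lowest control value of 0.936.

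The classes were compared over 7 type I type genes (Ifit1, Ifit2, Ifit3, Oas2, Oas3, Oasl1 and Oasl2) and 4 interferon gamma type genes (Gbp2, Gbp3, Gbp7 and Cxcl9). Both were lower in lesions, and no p is given for a class, because its members were chosen with earlier results known. In IMQ + NS against control the median log2 fold change was -1.27 for the type I type, with 5 of 7 genes DEGs that fell, and -1.08 for the interferon gamma type, with 2 of 4. Over all genes the median was 0.05, and 11% were DEGs that fell. In IMQ + BZLF against control the class medians were -1.59, with 7 of 7, and -0.92, with 1 of 4, where 3 of 4 fell by adjusted p alone. Over all genes the median was -0.02, with 10.1% DEGs that fell and 29.2% lower by adjusted p alone. In IMQ + BZLF against IMQ + NS the class medians were -0.33 and 0.13, against -0.02 over all genes, with 0 DEGs and 0 genes past the adjusted test in either class. With Iigp1, Igtp and Irgm1 added to the interferon gamma type, its medians over 7 genes were -1.12, 0.12 and -0.98 in IMQ + NS against control, IMQ + BZLF against IMQ + NS, and IMQ + BZLF against control. Without control replicate 2 the medians against control were -1.48 and -1.04 in IMQ + NS and -1.71 and -0.97 in IMQ + BZLF samples.

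Per sample, the mean log2 level of the 7 type I type genes relative to the control mean was 0.05, -0.45, 0.52 and -0.12 in the control group, -1.63, -1.80, -0.84 and -0.91 in the IMQ + NS group and -1.89, -1.58, -1.35 and -1.45 in the IMQ + BZLF group. That of the 4 interferon gamma type genes was 0.35, -0.05, -0.01 and -0.29, then -1.09, -1.30, -0.84 and -0.86, and then -1.11, -0.78, -0.97 and -0.42. Lesion samples lay below control samples in both classes, and IMQ + NS replicates 3 and 4 were the highest lesion samples for the type I type. The group means were -1.30 ± 0.49 (SD, n = 4) and -1.02 ± 0.22 in IMQ + NS samples and -1.57 ± 0.23 and -0.82 ± 0.30 in IMQ + BZLF samples. The type I level minus the interferon gamma level of the same sample was -0.30, -0.40, 0.53 and 0.17 in control, -0.54, -0.50, 0.00 and -0.05 in IMQ + NS and -0.78, -0.80, -0.38 and -1.03 in IMQ + BZLF samples. The groups overlapped in this difference except that IMQ + BZLF replicates 1, 2 and 4 lay below every other sample. Whether the classes differ in their response was not tested.

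**Figure D4:**
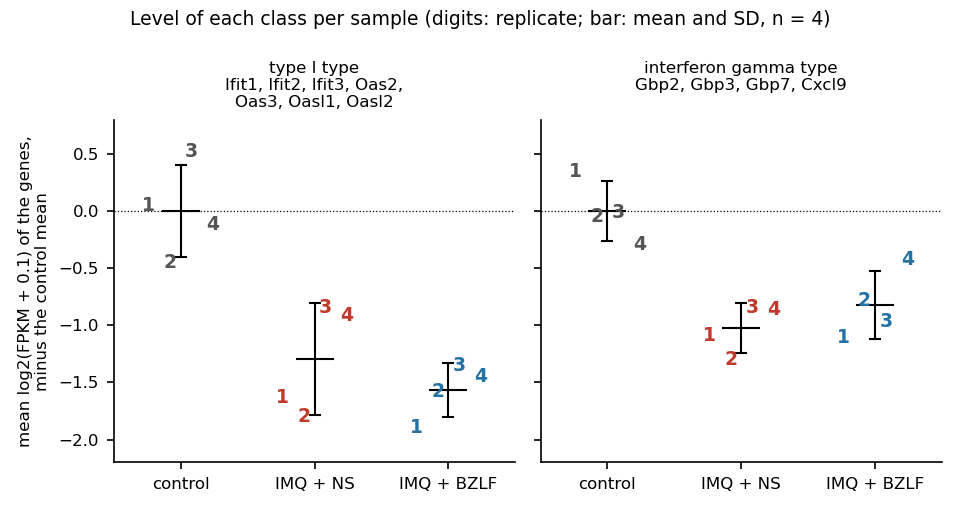
Mean log2(FPKM + 0.1) of 7 type I type genes (left) and 4 interferon gamma type genes (right) in each sample, relative to the mean of the control group, where digits give the replicate number and bars the group mean and SD (n = 4). All lesion samples lie below the control samples in both panels, and IMQ + NS replicates 3 and 4 lie above the other lesion samples on the left.

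Tested genes of the upstream lists, which leave out the interferon-stimulated genes described above, were not called as DEGs against control. Among the genes left out, the sensor gene Zbp1 was a DEG that fell in both lesion groups. The sensor gene Dhx58 was one in IMQ + BZLF samples. Ifng had 0.476, 0.0207, 0.169 and 0.17 FPKM in the control group, 0, 0, 0 and 0.0206 in the IMQ + NS group and 0, 0.0215, 0 and 0 in the IMQ + BZLF group. Ifnb1 had 0.0325, 0, 0.266 and 0 FPKM in the control group and was listed at 0 in all 8 lesion samples. Both interferons were below the level needed for a test. Of 21 ligand genes, 16 had no row, and the other 3 (Ifnk, Ifne and Ifnz) did not exceed 0.19 FPKM in any sample. Of 17 genes for receptors and signalling, 0 were DEGs against control in either lesion group. Of all genes 11% fell and 11.4% rose as DEGs in IMQ + NS, and 10.1% and 9.65% in IMQ + BZLF samples. By adjusted p alone 4 of the 17 fell and 2 rose in IMQ + NS samples (27.1% and 29% of all genes). In IMQ + BZLF samples 10 fell and 1 rose (29.2% and 23.8% of all genes). In IMQ + BZLF against IMQ + NS the only DEG of these 17 was Ptpn6, a phosphatase of blood cells, at -1.08 (SE 0.11, adjusted p = 0.00157). Of all genes 2.2% were called lower there. By adjusted p alone 3 of the 17 were lower and 0 higher, against 5.17% and 1.28% of all genes. Their median was -0.19, with 16 of 17 below 0, against a median of -0.02 over all genes. Of 17 tested genes of nucleic acid sensing, 0 were DEGs against control, with 2 falls and 4 rises by adjusted p alone in IMQ + NS and 7 falls and 1 rise in IMQ + BZLF samples, against the same shares of all genes. Of these, 1, the DNA sensor gene Tlr9, was a DEG in IMQ + BZLF against IMQ + NS, at -1.13 (SE 0.17, adjusted p = 0.00718). By adjusted p alone 3 of the 17 sensing genes were lower there and 0 higher, against the same 5.17% and 1.28%. Their median was -0.29, with 16 of 17 below 0. Tlr7, the receptor of imiquimod, had 3.68, 2.67, 3.76 and 3.62 FPKM in the control group, 2.44, 3.58, 2.87 and 2.05 in the IMQ + NS group and 1.18, 2.25, 3.01 and 2.41 in the IMQ + BZLF group. The groups overlapped, and Tlr7 did not pass against control, at -0.33 (SE 0.19, adjusted p = 0.156) in IMQ + NS and -0.67 (SE 0.26, adjusted p = 0.058) in IMQ + BZLF samples.

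Wider lists of target genes had more falls than rises against control. Of 47 other tested type I type genes, 11 fell and 2 rose as DEGs in IMQ + NS against control, with a median of -0.71, where 11% of all genes fell and 11.4% rose. In IMQ + BZLF against control 20 fell and 1 rose, with a median of -0.85, where 10.1% of all genes fell and 9.65% rose. Between the lesion groups their median (IMQ + BZLF minus IMQ + NS) was -0.17, with 36 of 47 below 0. The largest fall in IMQ + NS was that of Ifit3b, at -1.58 (adjusted p = 0.000476), followed by Ifi204, a DNA-binding sensor of the Ifi200 family, which had 13.4, 10.2, 14.1 and 11 FPKM in the control group, 3.25, 4.7, 5.75 and 5.58 in the IMQ + NS group and 4.33, 6.18, 4.88 and 8.75 in the IMQ + BZLF group. The rises were Slfn9, at 1.44 (adjusted p = 0.0192) and 1.34 (adjusted p = 0.0263) in the lesion groups, and Ifitm1, a membrane protein that hinders viral entry. Slfn9 had 3.39 FPKM in control replicate 2 against 0.713 to 0.865 in the other control samples. Ifitm1 had 9.39, 10.2, 12.8 and 13.2 FPKM in the control group, 15.8, 28.1, 33.8 and 29 in the IMQ + NS group and 6.47, 8.68, 12.5 and 10.9 in the IMQ + BZLF group. It was high in the IMQ + NS group alone, at 1.18 (SE 0.23, adjusted p = 0.00263) against control, and was the only gene of this list called between the lesion groups, at -1.45 (SE 0.26, adjusted p = 0.014).

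Of 33 other tested interferon gamma type genes, 12 fell and 1 rose as DEGs in IMQ + NS against control, with a median of -0.81, against the same 11% and 11.4% of all genes. In IMQ + BZLF against control 13 fell and 0 rose, with a median of -0.95, against 10.1% and 9.65%. Between the lesion groups their median (IMQ + BZLF minus IMQ + NS) was -0.18, with 23 of 33 below 0, so these wider lists did not have the opposite signs of the classes of 7 and 4 genes. Gbp10 had 4.46, 2.28, 4.94 and 4.61 FPKM in the control group, 0.684, 0.696, 0.796 and 0.431 in the IMQ + NS group and 0.628, 0.745, 0.611 and 0.976 in the IMQ + BZLF group. Its lesion samples lay well below its control samples, at -2.44 (SE 0.27, adjusted p = 0.000133) in IMQ + NS and -2.28 (SE 0.26, adjusted p = 0.000252) in IMQ + BZLF samples. Acod1, which encodes the enzyme that makes itaconate in activated myeloid cells, had 0, 0.00966, 0.00988 and 0 FPKM in the control group, 0.202, 0.606, 1.8 and 0.761 in the IMQ + NS group and 0.0597, 0.0201, 0 and 0.0189 in the IMQ + BZLF group. It was near 0 outside the IMQ + NS group, rose in that group against control (adjusted p = 0.00112) and was lower in IMQ + BZLF against IMQ + NS (adjusted p = 0.0145). No fold is given for Acod1 because 2 control samples were listed at 0.

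Levels of cell type markers also differed between the groups. In bulk skin, fewer cells of a type and less RNA per cell cannot be told apart. Of all genes 11% fell and 11.4% rose as DEGs in IMQ + NS against control, and 10.1% and 9.65% in IMQ + BZLF. By adjusted p alone 27.1% fell and 29% rose in IMQ + NS, and 29.2% and 23.8% in IMQ + BZLF. Of 7 macrophage markers 0 fell as DEGs and 6 fell by adjusted p alone in IMQ + NS against control, where 1 rose, and 2 and 7 fell in IMQ + BZLF, with sums of 866 to 1240 FPKM in control, 620 to 876 in IMQ + NS and 404 to 601 in IMQ + BZLF samples. Of 4 fibroblast markers 3 fell as DEGs in both lesion groups, with sums of 11200 to 16200, 2940 to 4090 and 3760 to 7160 FPKM. Of 6 tested T and NK cell markers 1 fell and 1 rose as DEGs in IMQ + NS and 3 fell in IMQ + BZLF samples, with sums of 15 to 23.4, 9.57 to 16.9 and 5.28 to 11.2 FPKM over all 7. Of 3 markers of plasmacytoid dendritic cells 1 fell and 1 rose as DEGs in each lesion group, with sums of 0.838 to 2.90, 0.738 to 0.977 and 0.755 to 1.13 FPKM. The marker that fell was Siglech, at 2.05, 0.59, 2.23 and 2.49 FPKM in the control group, 0.289, 0.405, 0.271 and 0.263 in the IMQ + NS group and 0.326, 0.696, 0.455 and 0.558 in the IMQ + BZLF group. Rises were found in 6 of 6 neutrophil markers in IMQ + NS, with sums of 27.7 to 46.7, 3120 to 9870 and 61.7 to 82.5 FPKM, and in 5 of 5 hair shaft markers in both groups, with sums of 6.37 to 272, 2980 to 4260 and 3870 to 5810 FPKM. The neutrophil sums were mostly S100a8 and S100a9, with means of 3010 and 2910 FPKM in IMQ + NS samples. There the means of Cxcr2, Csf3r, Mmp8 and Ly6g were 0.856 to 14.8. In IMQ + BZLF against IMQ + NS 6 of 6 neutrophil markers fell as DEGs, where 2.2% of all genes did. So did 3 of 4 markers of proliferative and 1 of 5 of basal and suprabasal keratinocytes. The same held for 1 of 7 macrophage, 1 of 6 tested T and NK cell and 1 of 2 tested B cell markers. There 0 markers of fibroblasts, plasmacytoid dendritic cells, hair shaft, skeletal muscle or adipocytes were DEGs. Of 5 basal and suprabasal keratinocyte markers 4 rose as DEGs in the IMQ + NS and 1 in the IMQ + BZLF group, with sums of 1840 to 2960, 4780 to 7580 and 2150 to 3700 FPKM, and 4 of 4 proliferative keratinocyte markers rose in both, with sums of 15.5 to 50.9, 922 to 2310 and 127 to 234 FPKM. In both groups 3 of 3 skeletal muscle markers fell, with sums of 2170 to 5240, 426 to 1000 and 706 to 947 FPKM, as did 2 of 3 adipocyte markers, with sums of 1880 to 3680, 1110 to 1620 and 1520 to 1720 FPKM. The highest control sums of the hair shaft and proliferative keratinocyte markers, and the lowest of the muscle markers, were those of control replicate 2. None of these markers was at 0 in all samples of a group. The part of the cell makeup in the lower levels of the interferon-stimulated genes was not tested.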

How the data were processed

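Back skin of mice was profiled by RNA-seq in 12 samples, 4 per group. The authors deposited 1 FPKM value per gene and sample, normalized for transcript length and depth, with no counts. The submitters' processing notes name mm10, fastp, HISAT2, HTSeq and R 3.2.0, and the labels name TRIzol and a VAHTS kit, whereas the study's methods describe Bowtie2 alignment to transcripts, quantification in eXpress, mirVana extraction and a stranded TruSeq library after ribosomal RNA removal. Which account made the table was not stated.

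Values were tested on log2(FPKM + 0.1) in limma 3.58.1 (R 4.3.3) with variances moderated along expression level, in 1 fit per pair of groups, over 15288 genes with a mean of at least 0.1 FPKM, with Benjamini-Hochberg adjustment. For single genes a two-sided exact permutation test over 70 assignments was added. Python 3.11.15, pandas 2.3.3 and matplotlib 3.10.9 were used. The method was tested on simulated data. Only 39.9% of 7567 low values were whole multiples (within 0.05) of the gene's smallest value, so reads were not recovered. Nothing says that the 4 samples of a group came from separate cages or batches, and p-values measure the spread between these samples. Replicate numbers are not said to pair samples.

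The genes, lists, tests and alternatives were chosen with earlier results of these data known. Every member with a row is described. The value in each sample is given for those called in any comparison and for all tested Ifit, Oas, Gbp and CXCR3 ligand genes. Isg15 was added, and Oas1a and Oas1g are described by their highest value. Of other lists, at most the 3 called genes with the largest fold changes were named per list and comparison, plus Ifnb1, Ifng and Tlr7, and 1 further gene is not reported here. Promoters came from RefSeq (GRCm38.p6) and the shares of 50-base transcript windows from the GENCODE annotation. Alternatives were a constant of 0.01 or 1, no filter or a mean of at least 1 FPKM, median ratio scaling, quantile normalization, all 12 samples in one fit, no trend, unadjusted p, the replicate number as a block, and leaving out each sample.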

Additional observations from a re-analysis of the deposited data

Results flagged for a closer look

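Rsad2 in control replicate 2 stood at 0.806 FPKM, the lowest of its group, against 1.45 to 1.61 in the other 3 control samples. Its gap to the nearest sample was 0.842 of the group's range, above Dixon's 95% critical value for 4 samples. This was 1 of 102 groups of 4 tested over the 34 genes, and chance flags about 1 in 20.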

How the results depend on the processing

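In both comparisons with control all 34 genes kept the sign of their fold change under every alternative run, and 10 of the 17 DEGs in IMQ + NS and 12 of the 20 in IMQ + BZLF samples were called under each of them. With a constant of 1 in the logarithm the counts of genes called lower were 10 and 12, the interferon gamma type median in IMQ + NS was -0.77 and the type I type median in IMQ + BZLF against control was -1.07, since a larger constant shrinks the fold change of low genes. Between the lesion groups the count by adjusted p alone, 1 gene (Ifi35), became 0 with no filter on low values, median ratio scaling, quantile normalization, all 12 samples in one fit, no trend and the replicate block, and ran from 0 to 1 when 1 sample was left out. The cause was not tested. Leaving out 1 sample gave 13 to 20 DEGs that fell in IMQ + NS and 17 to 23 in IMQ + BZLF against control. The replicate numbers were not taken to pair the samples, since no label says so and correlations of same-numbered deviations were not all above 0.1. They ran from -0.152 to 0.184 between IMQ + NS and control samples, from -0.077 to 0.176 between IMQ + BZLF and control samples, and from -0.025 to 0.26 between the lesion groups, where 3 of 4 samples correlated best with their own number. With the numbers as a block 18 genes were called lower in IMQ + NS and 20 in IMQ + BZLF against control, and 0 between the lesion groups. The second call rule, by adjusted p alone, was put under alternatives after seeing the data. Genes below about 1 FPKM, such as Oas3 and Rsad2, rest on few fragments, and their number is unknown.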
